A study of Rattus norvegicus with 16 samples.

Results

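The split described here sets row 2 of 2 microarray slides against row 1, in RNA from adult male rat liver. All 16 of the 16 arrays were used: 8 lay in slide row 1 and 8 in slide row 2, as read from the second-last number of each scanner file name. Every row held 2 arrays of each of 4 groups, so the row difference was estimated within groups. The livers came from Sprague-Dawley males aged 78 to 86 days, and each array carried a pool of RNA from 2 rats. Group C was born to and nursed by dams given corn oil. For group M the dams received methyl mercury together with polychlorinated biphenyls and organochlorine pesticides, at 1.0 mg/kg/day in all, from the start of gestation until day 20 after birth, and raised their own pups. Groups CC and MM were the cross-fostered counterparts of C and M, that is, litters given to another dam at birth. Slide 1 held groups C and CC and slide 2 groups M and MM, so slide and exposure cannot be told apart, while both slides carried both rows. The description of the M arrays names a control, while their titles and treatment labels name the mixture and were followed.

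Liver RNA was labelled with the red dye Cy5 on every array, and the common reference, RNA of 14 rat cell lines, with the green dye Cy3. The dyes were not swapped. Row 1 carried C replicates 9 and 10, CC 1 and 2, M 5 and 6, and MM 1 and 2, and row 2 carried C 11 and 12, CC 3 and 4, M 7 and 8, and MM 3 and 4. Different rats therefore lay in the 2 rows, and row and rat pool cannot be told apart by the layout alone. The reference RNA was the same in both rows and gives a check on the array in the green channel. It cannot show an effect confined to the red channel.

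A liver can differ between animals in several regulated programmes. The circadian clock drives daily rhythms of the PAR bZIP transcription factors and their targets. Fasting and glucocorticoids raise gluconeogenesis, insulin raises lipid synthesis through SREBP1, and fatty acids acting on PPARalpha raise peroxisomal and mitochondrial oxidation. Of the genes given as markers of the row split, Cebpb and Pex11a belong to such programmes. Crym and Slc25a28 are listed here under thyroid hormone and iron handling. Crym encodes mu-crystallin, which binds thyroid hormone in the cytosol. Cebpb encodes a bZIP transcription factor of the acute phase and of gluconeogenesis. Pex11a takes part in the division of peroxisomes and is a PPARalpha target. Slc25a28 encodes mitoferrin 2, which carries iron into mitochondria.

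The liver channel differed widely between rows. Of 11089 features tested, 5012 (45.2%) passed limma's test after Benjamini-Hochberg adjustment at 0.05 and are referred to as called, 2381 higher (21.5%) and 2631 lower (23.7%) in row 2. The leading axis of variation among the arrays held 46.2% of the variance and separated the rows completely. In the reference channel, 155 of the same features (1.4%) were called, 35 higher (0.316%) and 120 lower (1.08%), and without 1 array at a time that count lay between 49 and 155. It fell by more than 1.5 times without any of C 9 (78), C 10 (62), C 11 (58), C 12 (50), CC 1 (56), CC 3 (73), CC 4 (49), M 5 (75), M 6 (62), M 7 (93), MM 2 (76) or MM 3 (74). The median size of the row difference on the log2 scale was 0.151 for liver and 0.0278 for the reference. Dividing by the reference lowered the count of 5012 only a little. On log2 ratios of liver over reference 4703 features (42.4%) were called, and on the authors' deposited values 4800 (43.3%).

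The direction of a liver row difference followed the place at which the probe is printed. An array of this design is a grid of 384 lines by 164 columns of spots, and the probes of a gene family or pathway are scattered over it. Among 20866 spots whose liver signal exceeded background on all arrays, the median difference, row 2 minus row 1, was 0.72 on the log2 scale in lines 1 to 48. It was 0.43, 0.23 and 0.08 in the next 3 bands of 48 lines, and -0.07, -0.24 and -0.44 in the 3 after those. In lines 337 to 384 it was -0.71. A smooth surface over line and column accounted for 92.1% of the variance of the row difference between these spots, and the line alone for 90.9%. The reference channel ran from 0.02 in the first band to -0.06 in the last, and the surface accounted for 29.4% of a much smaller spread (SD 0.0921 against 0.442 on the log2 scale).

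**Figure D1:**
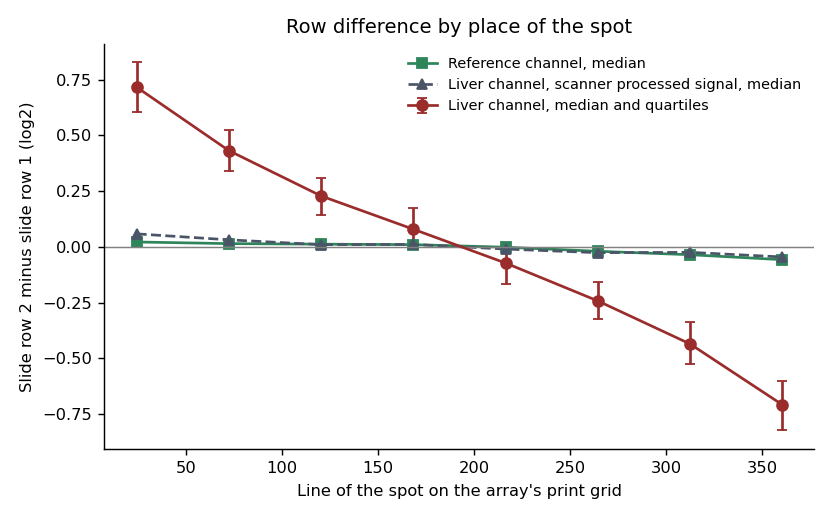
Median difference in log2 signal, slide row 2 minus slide row 1, against the line of the print grid, in 8 bands of 48 lines; bars are quartiles over spots of the liver channel. The liver channel falls from 0.72 to -0.71 across the grid, while the reference channel and the scanner's own processed liver signal stay between -0.06 and 0.06.

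Probes printed more than once gave the same comparison within a single RNA. There were 1676 probes whose first and last bright spots lay at least 200 lines apart, and both spots measure the same transcript in the same hybridisation. In 1624 of them (96.9%) the spot nearer line 1 was higher in row 2 and the spot nearer line 384 was lower, and in 0 was it the other way round. The median row difference was 0.61 for the first spot and -0.57 for the last. Different probes to a single gene behaved likewise: of 56 genes with bright probes at least 200 lines apart, 55 had a positive row difference near the start of the grid and a negative one near its end. For Npc1, a lysosomal cholesterol transporter, the probe at line 8 gave 0.80 and a probe with spots centred on line 307.5 gave -0.32. For Rps15, a protein of the small ribosomal subunit, the values were 0.52 at line 17.5 and -0.50 at line 327. For Slc25a5, the mitochondrial ADP/ATP carrier, they were 0.42 at a mean line of 92 and -0.67 at line 352.

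The gradient could be measured on each array without any comparison, as the change in log2 signal of the same probe per 100 grid lines, over 5535 probes with replicate spots. In the liver channel the 8 arrays of row 1 gave a lowest value of 0.0274, a median of 0.177 and a highest of 0.241. The 8 arrays of row 2 gave -0.442, -0.218 and -0.115. The rows did not overlap: all arrays of row 1 grew brighter towards the end of the grid and all arrays of row 2 grew dimmer. The means were 0.152 ± 0.0728 (SD, n = 8) and -0.248 ± 0.113 (SD, n = 8), and the difference of -0.4 had an exact two-sided permutation p of 0.000155, the smallest that 8 against 8 arrays can give (adjusted over 3 measures, the liver channel, its processed signal and the reference channel, 0.000155). In the reference channel the values ran from 0.0134 to 0.0211 in row 1 and from -0.029 to 0.00637 in row 2, also without overlap, with a difference of -0.0293 (exact permutation p = 0.000155, the smallest possible). The permutations ran over all splits into 8 against 8 arrays, without keeping the groups balanced over the rows. They were not among the planned tests. Column 1 of the slides had the steepest liver gradients, with a mean size of 0.313 over its 4 arrays, against 0.213, 0.15 and 0.124 in columns 2, 3 and 4. The steepest single array was MM replicate 3 in column 1 (-0.442), and it also had the highest spread between replicate spots, 40%, in a range that began at 9.54%.

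**Figure D2:**
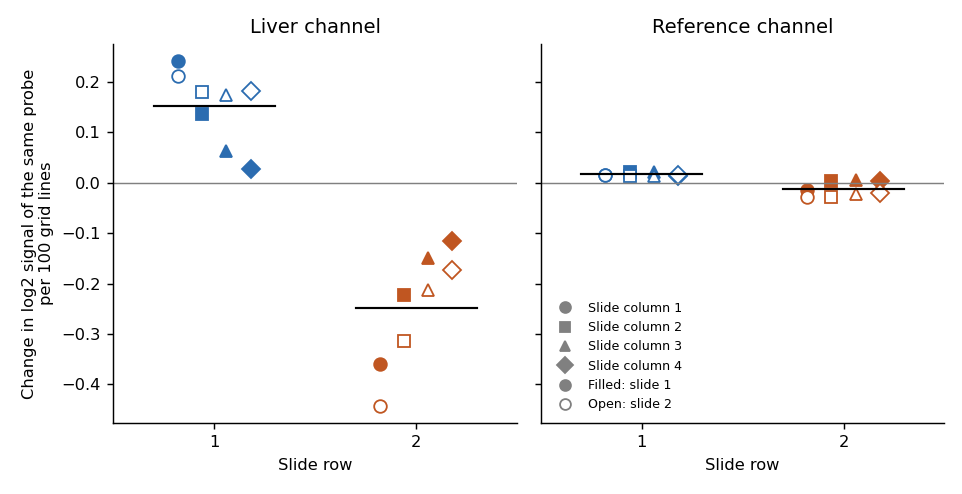
Change in log2 signal of the same probe per 100 grid lines, for each of the 16 arrays, in the liver and the reference channel; symbols give the slide column, filled and open symbols the slide, and black lines the mean of a row. All 8 row 1 arrays lie above 0 and all 8 row 2 arrays below 0 in the liver channel.

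The calls of the liver channel divided along the same line. Of 2400 called features whose spots were centred on lines 1 to 192, 2374 were higher in row 2, and of 2612 centred on lines 193 to 384, 2605 were lower. In all, 4993 of the 5012 called features had the direction of the fitted surface at their place, as did 9879 of all 11089 features. The surface was fitted to signals of the same arrays. Across the 11089 features, the row difference and the surface had a Pearson correlation of 0.886 and a Spearman correlation of 0.909, given as a description since all features share the 16 arrays. Dim features followed the surface less steeply than bright ones: the slope on the surface was 0.26 among the 1109 dimmest features and 0.965 among 1109 with mean levels from 10.01 to 11.53.

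When the surface of each array was removed before normalisation, 60 features (0.541%) were called between rows, 17 higher (0.153%) and 43 lower (0.388%), and 1410 had an unadjusted p under 0.05. This choice was made after the gradient had been seen. Of the 60, 31 had also been called with position left in, of which 16 kept their direction. The scanner's processed liver signal, for which the file headers list a fitted multiplicative trend, gave 11 calls (0.0992%), and 9 of them were among the 60. The median size of the row difference fell from 0.151 to 0.0526, and the leading axis of variation held 15.6% of the variance and no longer separated the rows. The row differences of slide 1 and slide 2, which share no array, correlated at 0.764 across features with position left in and at 0.0377 with it removed. Groups C and CC, which lay on the same slide, correlated at 0.732 and then at 0.341, and M and MM at 0.743 and then at 0.121. Over the 6 pairs of groups the correlation with position removed ran from -0.0375 to 0.341.

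The marker genes of the split lay at the edges of the grid. Crym, printed once at line 6, gave 8.66, 9.83 and 11.02 in row 1 (lowest, median and highest of 8 arrays, log2 liver signal) and 10.61, 11.09 and 11.78 in row 2. The rows overlapped, and the row difference was 1.35 ± 0.29 (SE, adjusted p = 0.00182). It was 0.79 in C, 0.85 in CC, 2.6 in M and 1.17 in MM, and it was 0.82 on slide 1 alone (adjusted p = 0.15) and 1.88 on slide 2 alone (adjusted p = 0.00261). With position removed the row medians were 10.2 and 10.74 and the difference was 0.54 ± 0.25 (adjusted p = 0.37). The difference was then 0.11 in C, 0.02 in CC, 1.66 in M and 0.37 in MM, and 0.07 on slide 1 and 1.01 on slide 2.

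Cebpb, with spots at lines 6 and 24, gave 9.73, 10.01 and 10.97 in row 1 and 10.64, 11.14 and 11.81 in row 2, a difference of 0.98 ± 0.20 (adjusted p = 0.000968). The difference was 0.47 on slide 1 alone (adjusted p = 0.173) and 1.5 on slide 2 alone (adjusted p = 0.00112), and the row by slide interaction was not called (adjusted p = 0.454). With position removed it was 0.24 ± 0.14 (adjusted p = 0.479), and its value was negative in C (-0.24) and CC (-0.05) and positive in M (0.6) and MM (0.65).

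Pex11a, at line 16, gave 7.84, 8.13 and 8.36 in row 1 and 8.82, 9.01 and 9.27 in row 2. The rows did not overlap, and the difference was 0.92 ± 0.07 (adjusted p = 3.29e-06). With position removed the rows overlapped, from 8.22 to 8.7 and from 8.49 to 8.97, and the difference was 0.24 ± 0.07 (adjusted p = 0.176).

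Slc25a28, at line 362, was the marker in the other direction and the marker at the other end of the grid. It gave 10.09, 10.27 and 10.45 in row 1 and 8.99, 9.39 and 9.67 in row 2, without overlap, a difference of -0.91 ± 0.08 (adjusted p = 8.04e-06). With position removed it remained called, at -0.21 ± 0.04 (adjusted p = 0.0344), with values from 9.73 to 9.99 in row 1 and from 9.61 to 9.75 in row 2. A second Slc25a28 probe at line 376 gave -0.54 with position left in and 0.02 with it removed. In the reference channel the row differences of the markers were 0.09 for Crym, 0.02 for Cebpb, 0.04 for Pex11a and -0.01 for Slc25a28, none of them called (adjusted p from 0.321 to 0.76).

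**Figure D3:**
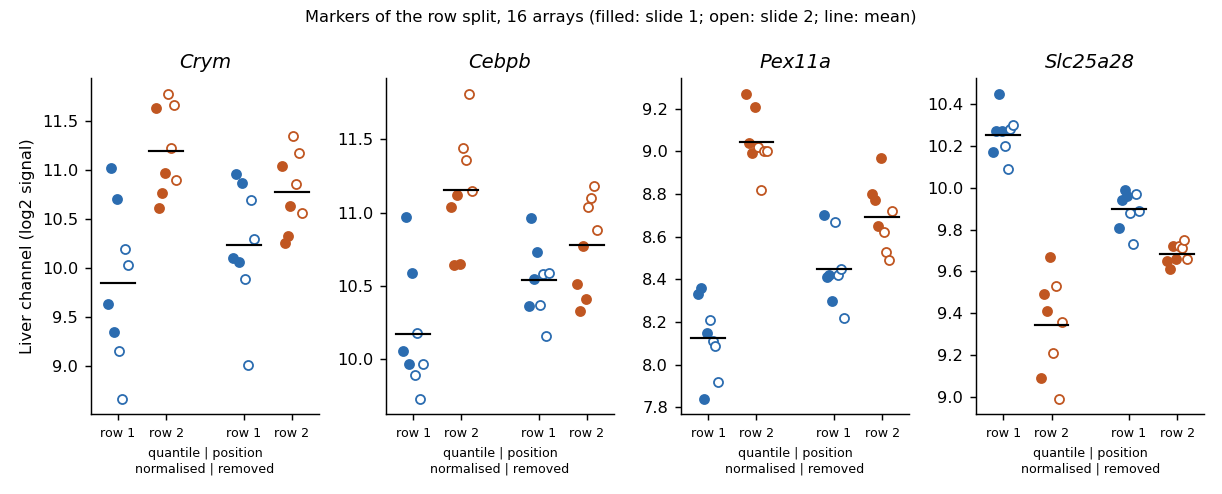
Log2 liver signal of the 4 marker genes on the 16 arrays, by slide row, with quantile normalisation (left pair) and after removal of the position surface (right pair); filled points are slide 1, open points slide 2, lines the mean of 8 arrays. Pex11a and Slc25a28 separate the rows with position left in, and all 4 genes overlap between rows after its removal.

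Called genes were ranked by row difference where the rows did not overlap after group means were removed. The largest differences belonged to genes printed at the ends of the grid, whatever their function. Genes whose rows overlapped by that measure, such as Crym and Cebpb, were left out of this ranking even where their difference was larger. All 15 genes of the ranking with the largest positive difference were centred on lines 1 to 63, and all 15 with the largest negative one on lines 353 to 383. Among the higher genes were Cndp2, a dipeptidase (0.89, line 2), Gda, guanine deaminase (0.81, line 25.5), Nr1h4, the bile acid receptor FXR (0.80, line 29), and Phyh, a peroxisomal enzyme of phytanic acid breakdown (0.80, line 63). With position removed they stood at 0.09, 0.15, 0.16 and 0.35, none of them called (adjusted p from 0.134 to 0.522). Among the lower genes were Tor1aip1, a protein of the inner nuclear membrane (-0.95, line 383), Alg11, a mannosyltransferase of N-glycan assembly (-0.94, line 376.5), Slco1b2, a hepatic uptake transporter of organic anions (-0.85, line 353), and Calr, the endoplasmic reticulum chaperone calreticulin (-0.83, line 372.5). With position removed they stood at -0.14, -0.17, -0.15 and -0.11, none of them called (adjusted p from 0.235 to 0.725). Of the 30 genes, Slc25a28 and Rbck1, a ubiquitin ligase subunit (-0.79 at a mean line of 353, then -0.17, adjusted p = 0.0291), were called under both treatments.

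Members of a single complex split by their place on the grid. The 74 tested proteins of the cytosolic ribosome had 15 members higher and 30 lower in row 2 (60.8% called, against 45.2% of all features) and a median of -0.12. Rps15 at a mean line of 17.5 was higher by 0.52 and Rpl19 at line 378 was lower, at -0.71. Of the 27 called members on lines 193 to 384, all 27 were lower, and of the 18 on lines 1 to 192, 15 were higher. With position removed, Rps15 stood at -0.21 (adjusted p = 0.026) and Rpl19 at 0.08 (adjusted p = 0.397), and the list's median was -0.03. Then 2 members were called, Rps15 and Rpl38, both lower, each by its brightest probe. Another Rps15 probe stood at 0.02 with position removed, and the other Rpl38 probes at 0.06, -0.12 and -0.05.

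The 66 nuclear-encoded subunits of oxidative phosphorylation had 25 members higher and 18 lower. These were 65.2% called, against 45.2% of all features, of which 21.5% were higher and 23.7% lower. Every called member had the sign of its end of the grid. Cox6b1, a subunit of complex IV, had 11.66, 11.82 and 12.23 in row 1 and 12.28, 12.5 and 12.75 in row 2 at line 38. Uqcr11, a subunit of complex III, had 13.09, 13.18 and 13.43 in row 1 and 12.34, 12.62 and 12.89 in row 2 at line 345. The rows did not overlap for either gene, in opposite directions (0.65 and -0.59). With position removed the rows overlapped for both, at 0.04 and 0.02, the list's median went from 0.06 to -0.02, and 0 of the 66 were called, against 0.541% of all features. Other Uqcr11 probes went the other way with position left in, at 0.62 (mean line 21) and 0.31 (line 88). With position removed those probes stood at -0.14 and -0.02.

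Most regulated programmes had members in both directions, split by place in the same way. The lists were described by counts and medians, beside a median of 0.00 over all features with position left in and -0.01 with it removed. Of the clock core, which holds the transcriptional loop of Bmal1, Clock, Per and Cry genes, 2 of 10 tested members were higher (Cry1, 0.29; Csnk1d, 0.23) and 1 lower (Npas2, -0.19), or 30% called against 45.2% of all features. All 3 were uncalled with position removed. Dbp, a strongly rhythmic output of the liver clock, varied widely within rows, with 9.06, 10.81 and 12.09 in row 1 and 9.75, 11.41 and 12.83 in row 2, and its row difference of 0.43 was uncalled (adjusted p = 0.399). With position removed it was -0.11 (adjusted p = 0.941). The clock output list had 4 of 14 members higher and 0 lower (28.6% called, against 45.2% of all features, of which 21.5% were higher). All 4 lay on lines 1 to 192, and its median went from 0.21 to 0.00.

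Of 19 glucocorticoid response genes, Cebpb was higher, and Cebpd and Cdkn1a, a cell cycle inhibitor (-0.57, line 342), were lower, 15.8% called against 45.2% of all features. Fkbp5 and Tsc22d3, which glucocorticoids induce directly, stood at 0.11 and 0.15, uncalled. The value of Tsc22d3 averaged opposite directions: it was -0.45 on slide 1 alone (adjusted p = 0.0132) and 0.76 on slide 2 alone (adjusted p = 0.0943), and the row by slide interaction was not called (adjusted p = 0.455). The gluconeogenesis and fasting list had 4 of 17 members higher and 1 lower (29.4% called), and Pck1 and G6pc1, its rate-limiting enzymes, stood at -0.04 and 0.18, uncalled. The value of G6pc1 also averaged opposite directions. It was -0.43 on slide 1 alone (adjusted p = 0.212) and 0.79 on slide 2 alone (adjusted p = 0.0341), and its row by slide interaction was not called. With position removed 0 members of either list were called (0.541% of all features were), Pck1 stood at 0.26 (adjusted p = 0.457) and G6pc1 at 0.32 (adjusted p = 0.6). By slide, G6pc1 was then -0.28 on slide 1 and 0.93 on slide 2.

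The lipid synthesis genes Fasn (-0.35, adjusted p = 0.376), Scd (0.38, adjusted p = 0.354) and Acly (0.28, adjusted p = 0.4) were uncalled, and with position removed they stood at -0.03, 0.06 and -0.03. Their spread between arrays was wide: Scd ran from 11.96 to 14.29 in row 1 and from 12.85 to 14.88 in row 2. Of 45 PPARalpha targets and fatty acid oxidation genes, 9 were higher and 8 lower (37.8% called, against 45.2% of all features). Cpt1a, which admits fatty acids to mitochondria, was higher by 0.43 (adjusted p = 0.0257) and Cyp4a1, of omega oxidation, was lower, at -0.57. With position removed 0 of 45 were called, against 0.541% of all features, and Cpt1a stood at 0.23 and Cyp4a1 at -0.06. Peroxisome biogenesis had 7 of 18 higher and 2 lower (50% called), with Pex11a at one end of the grid and Pex13, a receptor docking protein (-0.67, line 367), at the other. Pex13 stood at 0.00 with position removed.

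Cholesterol biosynthesis kept its median when position was removed. It had 3 of 26 members higher and 7 lower (38.5% called, against 45.2% of all features), with Tm7sf2 (-0.67), Idi1 (-0.60) and Srebf2, the transcription factor of the pathway (-0.50), among the lower. Its median was -0.12 under both treatments, 18 of 26 members were below 0 with position removed (6030 of 11089 features were), and 0 were called. Tm7sf2 then stood at -0.37 (adjusted p = 0.145), Idi1 at -0.17 (adjusted p = 0.627) and Srebf2 at -0.21 (adjusted p = 0.209). By slide, Tm7sf2 was -0.43 on slide 1 and -0.32 on slide 2, while Srebf2 was -0.38 on slide 1 and -0.04 on slide 2. Of 11 thyroid hormone genes, Crym was higher and Rxra and Thra, nuclear receptors, were lower (-0.38 and -0.13), 27.3% called, and 0 were called with position removed. Iron and haem handling had 7 of 30 higher and 11 lower (60% called, against 45.2% of all features). With position removed it held 1 call in each direction, where 0.541% of all features were called: Slc25a28 was lower, and Ftl1, the ferritin light chain, had turned from -0.25 to 0.20.

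Over all 51 lists, 38 of the 44 with at least 5 tested members had called members in both directions. Among all features 21.5% were called higher and 23.7% lower, so that count is a description only. The medians of these 44 lists ran from -0.27 to 0.21, had the sign of the surface median in 33, and correlated with it at 0.615. With position removed they ran from -0.30 to 0.12, and 8 of the 51 lists held any called member.

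**Figure D4:**
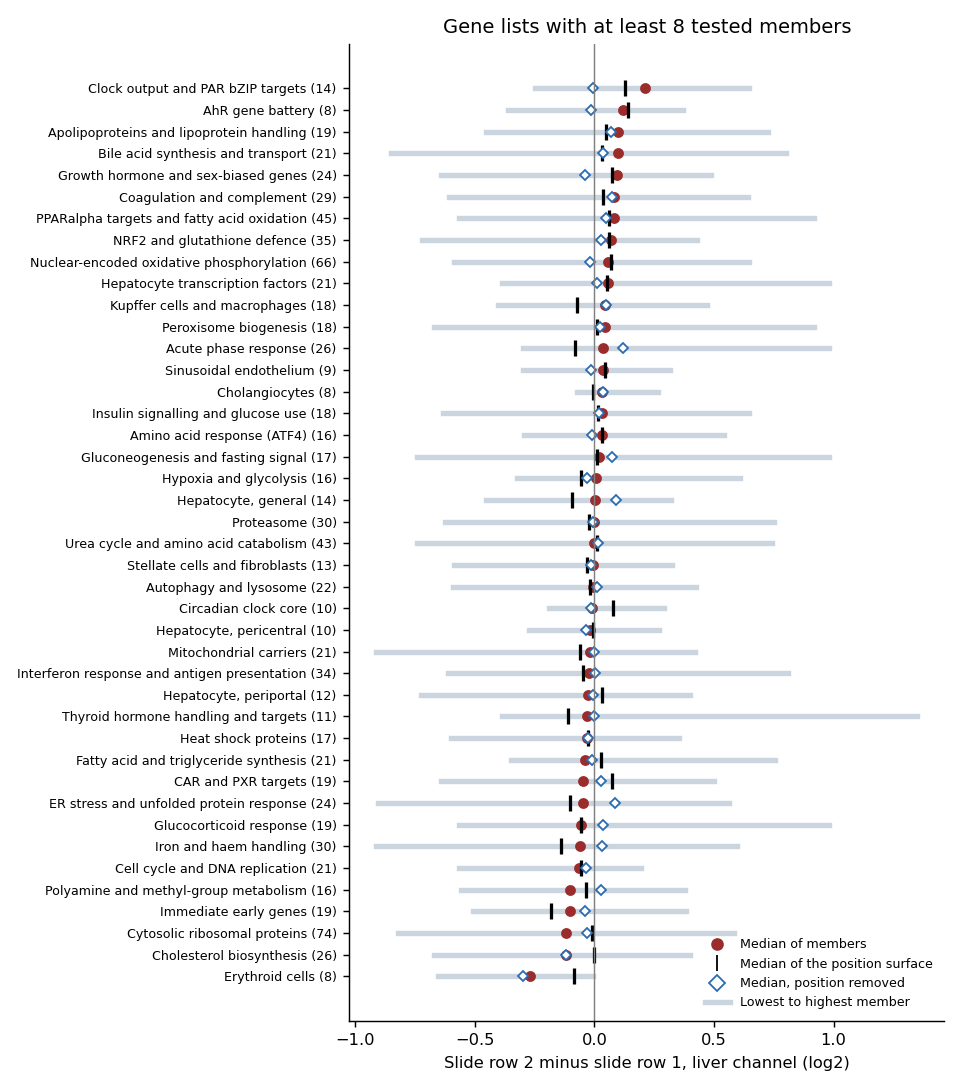
Gene lists with at least 8 tested members (number in brackets): median row difference of the liver channel (red), median of the position surface at the members' places (black bar), median after removal of the surface (open blue), and the range of the members (grey), on the log2 scale. The clock output list moves from 0.21 to 0.00, while cholesterol biosynthesis stays at -0.12 and erythroid cells move from -0.27 to -0.30.

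Markers of cell types gave no list with a call after the removal of position, apart from the general hepatocyte list. That list checks the tissue: Alb, Apoa1, Apob, Ttr, Ambp, F2, Fga and Fgb were well above background on all 16 arrays, with liver over reference log2 ratios from 4.85 (lowest, F2) to 8.76 (highest, Ttr). Periportal hepatocyte markers had 3 of 12 higher and 3 lower, pericentral markers 0 of 10 called, endothelial markers 2 of 9 higher and 2 lower, and macrophage markers 3 of 18 higher and 2 lower. These were 50%, 0%, 44.4% and 27.8% called, against 45.2% of all features. Erythroid markers had the lowest median, -0.27, with 0 of 8 higher and 4 lower, where 21.5% of all features were higher and 23.7% lower. Hbb-bs, a beta globin, gave 12.36, 13.25 and 14.23 in row 1 and 12.19, 12.58 and 13.21 in row 2 (-0.65, adjusted p = 0.0167). With position removed all 8 erythroid markers were below 0, where 6030 of 11089 features were. Their median was -0.30 and 0 were called, against 0.541% of all features. Hbb-bs then stood at -0.40 (adjusted p = 0.401). In pooled tissue, fewer cells of a type and less RNA per cell cannot be told apart.

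The genes called after the removal of position were mostly the brightest on the array, and they were chosen for naming after their values were seen. Of the 60 features, 21 carried a gene symbol. The 1109 brightest features held 32 of the 60. In 49 of the 60 the row difference left was opposite in sign to the surface that had been removed. The share opposite to the surface over all features is not given here, so counts of this kind are a description only. Among the 200 brightest features, 22 were called, all 22 opposite to the surface, and the slope of the row difference on the surface was 0.605. These genes had differed between rows by less than the surface at their place. Alb, the main plasma protein, had 16.68, 16.85 and 16.9 in row 1 and 16.73, 16.82 and 17.16 in row 2, a difference of 0.05 (adjusted p = 0.456) where the surface was 0.41. With position removed its rows no longer overlapped (16.94 to 17.1 and 16.52 to 16.89) at -0.34 ± 0.05 (adjusted p = 0.0126).

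Obp3, an odorant-binding protein of the lipocalin family, changed in the same manner, from 0.09 (surface 0.60) to -0.47 (adjusted p = 0.00552). Ambp, the precursor of alpha-1-microglobulin, went from -0.06 (surface -0.33) to 0.30 (adjusted p = 0.00552), Fgb, the fibrinogen beta chain, from -0.06 (surface -0.38) to 0.34 (adjusted p = 0.0291), and Itih4, an acute phase protein, from -0.26 (surface -0.76) to 0.44 (adjusted p = 0.0126). Alb and Obp3 lie on mean lines 90 and 39 and stood below 0, and Ambp, Fgb and Itih4 lie on mean lines 254.5, 285.5 and 371 and stood above 0. The reference channel moved in the same direction as the liver channel for 54 of the 60 features, and for 19 of them the reference was itself called that way among its 182 calls with position removed (1.64%), at -0.21 for Alb (adjusted p = 0.045) and 0.34 for Itih4 (adjusted p = 0.00881). The count of 54 has no share over all features beside it here and is a description only.

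**Figure D5:**
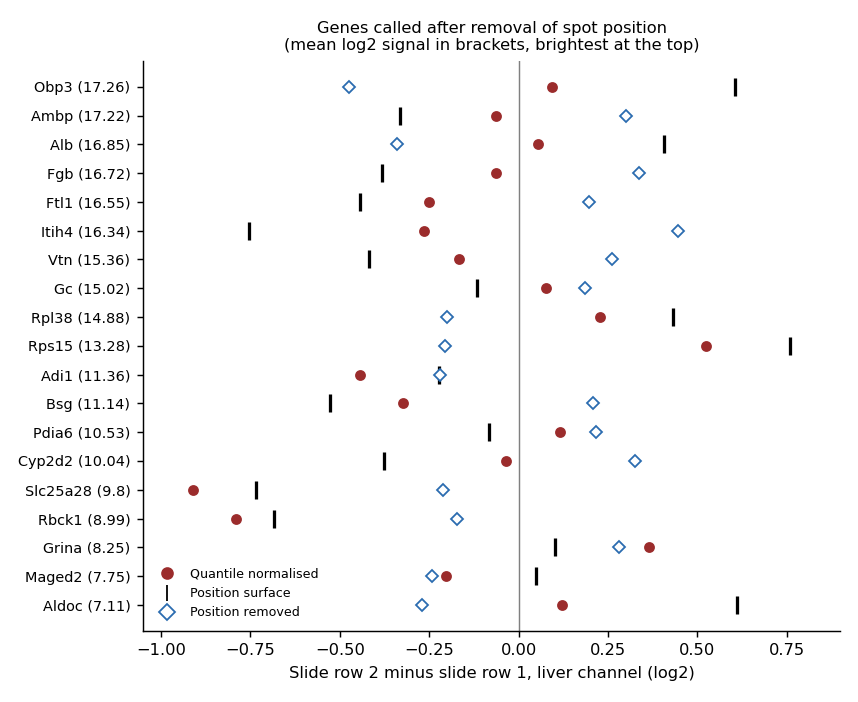
Genes with a symbol called between rows after removal of the position surface (19 of the 21), brightest at the top: row difference of the liver channel before (red), the surface at the gene's place (black bar) and the difference after removal (open blue), on the log2 scale. For the brightest 10 genes the blue point lies on the other side of 0 from the black bar.

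A smaller set of called genes did not oppose the surface. Grina, a membrane protein of the TMBIM family (0.36, then 0.28), and Adi1, of the methionine salvage pathway (-0.44, then -0.22), kept their direction and their call under both treatments, as Slc25a28 and Rbck1 did. None of Grina, Adi1, Slc25a28 and Rbck1 was called in the reference channel with position removed (adjusted p from 0.1675 to 0.8203). On the scanner's processed signal the 4 genes stood at 0.34, -0.20, -0.20 and -0.17, and none of them was called (adjusted p from 0.0901 to 0.12). The count of 60 rested on all arrays: without 1 array at a time it lay between 9 and 63. It fell by more than 1.5 times without each of C 9 (25), C 10 (19), C 11 (30), C 12 (9), CC 1 (10), CC 3 (11), CC 4 (10), M 5 (11), M 6 (17), M 7 (30), M 8 (15), MM 1 (22) and MM 3 (10). On slide 1 alone it was 0, with 1387 features at an unadjusted p under 0.05, and on slide 2 alone 1.

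A dependence of the row difference on slide or group was called for 1 feature. For the row by slide interaction, 0 of 11089 features (0%) were called in limma, with 981 at an unadjusted p under 0.05 and a lowest adjusted p of 0.212. With position removed the count was also 0, with 1001 at an unadjusted p under 0.05. For the row by group interaction, 1 feature (0.00902%) was called, and it was named after its value was seen: Bst2, an interferon-induced membrane protein that tethers viruses. Its row difference was 0.17 in C, 0.55 in CC, -0.92 in M and -0.23 in MM (adjusted p = 0.0276 by the moderated F test). With position removed 0 features were called, with 602 at an unadjusted p under 0.05, while the values of Bst2 stayed close to those before, at 0, 0.49, -0.89 and -0.26.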

How the data were processed

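The 16 2-colour Agilent arrays were read from the scanner's files. The deposited files held spot intensity, extracted with Agilent Feature Extraction 11.0.1.1 per the file headers, with probes annotated on rn4. Mean signals had been planned, but median signals were what the files held. Median signals were corrected with normexp (offset 50), quantile normalised between arrays and put on the log2 scale. Spots flagged as outliers (732 to 1138 per array) were left out, spots of a probe were averaged, and the brightest probe stood for each name. Of 30367 probes, 18005 had a RefSeq symbol. The fit took names whose liver signal passed the scanner's background test on 3 of the 4 arrays of any group, 11089 of 26913. Between 35% and 41.9% of probes were above background in the liver channel, and the number of arrays limits the precision. No 2 arrays were identical.

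limma 3.58.1 (R 4.3.3) fitted 4 group means and slide row, with 11 residual degrees of freedom and Benjamini-Hochberg adjustment. The position surface was a polynomial of degree 5 in grid line and in grid column, with all products. It was fitted per array, without the row labels, to the log2 deviation from the 16-array mean at spots bright on all arrays, and divided out before the offset. The script was tested on simulated data. The log2 ratios of the authors' deposited table correlated at 0.989 to 0.995 with loess ratios of red over green, with slopes of 0.979 to 0.994 and medians of -0.0382 to -0.0273. The log10 ratios that the scanner software wrote to the deposited files gave no printed value. The comparison settles scale and direction of the deposited table, while the software used for them is not known here.

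Named genes were up to 15 per direction with the largest called, non-overlapping row difference (placeholder names such as LOC numbers left out). Overlap was judged after group means were removed. Up to 4 called members of each list and 50 fixed genes, of which 42 were tested, were named too. The split, the lists and these genes were chosen with earlier results of these data known. A few genes are not reported here.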

Additional observations from a re-analysis of the deposited data

Results flagged for a closer look

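Among the named genes and gradients, 88 sets of 8 arrays were checked for an array standing apart, and 5 did, where about 1 in 20 is what chance gives. Clock had its outlying array in row 2, C replicate 11 at 6.74 (log2 liver signal). Fasn had it in row 1, C replicate 9 at 12.58. Pdk4, which restrains glucose oxidation, had it in row 2, CC replicate 3 at 6.9. Cyp7a1, the rate-limiting enzyme of bile acid synthesis, had it in row 1, M replicate 6 at 7.14. Sqle, of cholesterol synthesis, had it in row 2, MM replicate 4 at 9.3. Bst2 was set apart by a row difference that was not the same in the 4 groups (moderated F test in limma, adjusted p = 0.0276).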

How the results depend on the processing

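The liver count of 5012 stayed between 4316 and 5265 under 14 other choices of background correction, scaling, filter, probe, block and weights, and between 4560 and 5123 without 1 array. It was 4800 on the authors' deposited values. It moved to 11 with the scanner's processed signal, 2036 on slide 1 alone (3587 on slide 2) and 2692 without the arrays of slide column 1. With position removed it was 60, or 51 with a surface of degree 3 (both added after the data were seen). The reference count of 155 moved to 314 without a filter on dim features and ran from 49 to 155 without 1 array. The row by slide count ran from 0 to 1 and the row by group count from 0 to 16 without 1 array. The latter was 0 with median centring and with position removed. The count of 60 ran from 9 to 63 without 1 array, and was 11 with the processed signal, 516 without the filter, 37 with slide column as a block, 0 on slide 1, 1 on slide 2 and 1 without slide column 1. The cause of these shifts was not tested.

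Among the marker genes, the 30 genes of largest difference and the fixed genes, values called under at least 1 of the settings compared turned for Rpl12 (0.0676 processed, 0.0124 and 0.0204 with position removed at degree 5 and 3) and Alb (-0.404, -0.339 and -0.332). They also turned for Tsc22d3 on slide 1 alone (-0.449) and for Cyp2c11 on the deposited values (-0.166). Other genes named above turned with position removed, Rps15, Rpl19 and Itih4 among them. No paired analysis was possible because each replicate number lies in 1 row within its group, so number and row cannot be separated.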
